A study of Homo sapiens with 24 samples.

Results

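TP63, SOX2, KLF4, KLF5, PITX1, TFAP2A, GRHL2, GRHL3, OVOL1 and ZNF750 are transcription factors that set or follow the squamous lineage, and their mRNA levels were followed across 24 RNA sequencing libraries of oesophageal squamous carcinoma cells. The 10 genes were chosen by symbol from 61251 genes in the deposited table, with earlier results of these data known. All 10 passed the filter on low values, a group mean of 1 FPKM, with 13729 genes in all. FPKM values are normalised for gene length and library size, so levels can be compared between genes per length. All cultures were KYSE450, an established human line of oesophageal squamous cell carcinoma (ESCC), labelled wild type and grown in RPMI-1640 with 10% fetal bovine serum. There were 4 groups of 6 libraries: the parental line, its drug tolerant persister (DTP) cells, a chemoresistant line titled KYSE450DDP, and the DTP cells of that line. DTP cells are those that outlive a drug exposure without a fixed resistance mutation. The labels list no treatment for any group, name no drug and do not spell out DDP. Nor is it labelled whether the 6 libraries of a group were separate cultures, so the p-values reflect the spread among libraries, and that spread may be technical.

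In stratified epithelia such as the oesophagus, proliferation is held in a basal layer and cells differentiate as they move outward. TP63 and SOX2, a high-mobility-group factor, maintain basal identity, and both lie on the long arm of chromosome 3, a segment often gained in squamous cancers. The zinc-finger factors KLF5 and KLF4 act mainly in the proliferating and the differentiating compartment. TFAP2A (AP-2 alpha) and PITX1, a homeobox factor, act early in surface and oral epithelium. The grainyhead-like factors GRHL2 and GRHL3 bind genes of cell junctions and of the barrier. OVOL1 and ZNF750 are zinc-finger proteins of late differentiation, and ZNF750 is a TP63 target in keratinocytes.

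Library totals recovered from the FPKM steps ran from 14947379 to 37989445 reads, at which a count of 0 allows up to 0.079 to 0.201 CPM (3 reads, counting error only). The 10 fixed squamous markers, 2 of them TP63 and SOX2, were all at or above 1 FPKM in each group. Their summed level had medians of 4749 FPKM in parental, 2934 in parental DTP, 5170 in chemoresistant and 5986 in chemoresistant DTP libraries. Leukocyte markers summed to at most 2.87 FPKM and endothelial markers to at most 1.22 FPKM in any library. Fibroblast markers summed to between 1.74 and 20.1 FPKM. Nuclear-retained RNAs can mark RNA quality. A list of 6 RNAs, not all of them nuclear-retained, summed to medians of 56.8, 97.1, 90.5 and 105 FPKM in the same order of groups. In the same tests 3 of its 3 tested RNAs were higher in parental DTP cells, beside 45.8% of all genes. In the chemoresistant line 2 were higher and 1 lower, beside 48.2% and 29.4% of all genes. Its members did not all move together. GAS5 had means of 28.1, 41.3, 49.0 and 53.1 FPKM, and MALAT1 24.6, 33.4, 16.8 and 22.3. The part of these RNAs in the results was not tested. Within groups, single libraries deviated with gene GC content (Spearman rho across genes between -0.640 and 0.655). In bulk RNA, fewer cells with a transcript and less of it per cell cannot be told apart.

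Chemoresistant DTP library 2 stood apart from the other 5 of its group. It was the lowest of 6 for 9 of the 10 factors, and the highest for PITX1. Its deviation from the group mean fell with gene length (Spearman rho across genes -0.408, against 0.1002 to 0.3123 in the other 5). That mean includes library 2, so the values of the other 5 are not independent of it. Parental DTP libraries 5 and 6 were low for TP63, at 135.7 and 138.2 FPKM beside 171.6 to 185.2 in the other 4. Values without these libraries are given below beside some of the changes that they enter.

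**Figure D1:**
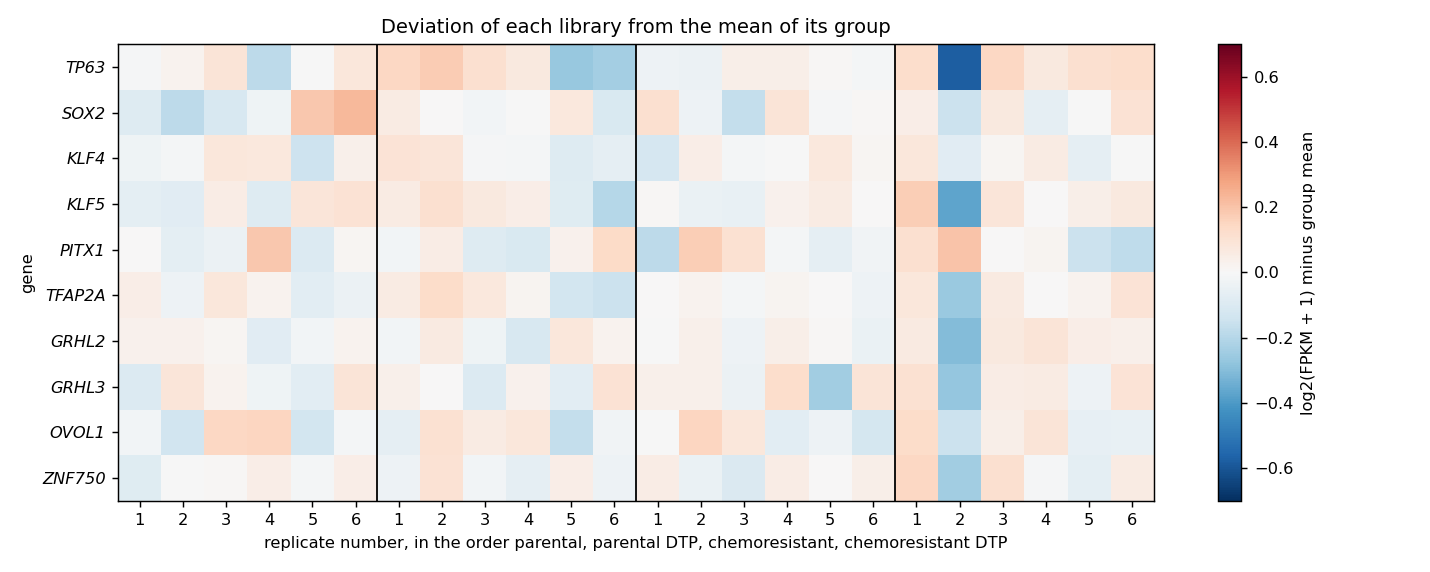
Deviation of each library from its group mean on log2(FPKM + 1), with the 10 genes in rows and the 24 libraries in columns by group and replicate number. Blue is below and red above the mean; chemoresistant DTP library 2 is blue in every row except PITX1, and TP63 at 65.9 FPKM is its deepest cell.

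The factors spanned a wide range of levels. TP63 and SOX2 had group means from 73.6 to 164.7 FPKM, above 96.4% to 98.8% of tested genes. KLF5 came after them in both parental groups, at 39.8 and 68.3 FPKM. At 132 FPKM in chemoresistant cells it lay above SOX2, and at 125 FPKM in chemoresistant DTP cells above both. KLF4, PITX1 and GRHL2 had means between 11.2 and 39.8 FPKM. TFAP2A was at 5.67 to 7.996 FPKM. GRHL3 and OVOL1 lay between 0.756 and 2.86 FPKM, and ZNF750 between 0.287 FPKM in parental and 2.55 in chemoresistant cells. ZNF750 was the lowest of the 10 in each group except the chemoresistant one, where GRHL3 and OVOL1 were lower. The ratio of the highest to the lowest group mean was 1.29 for PITX1 and 1.41 for TFAP2A, 1.76 to 3.78 for 7 factors, and 8.88 for ZNF750. Of the 10, all but PITX1 and TFAP2A had their lowest mean in the parental line.

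**Figure D2:**
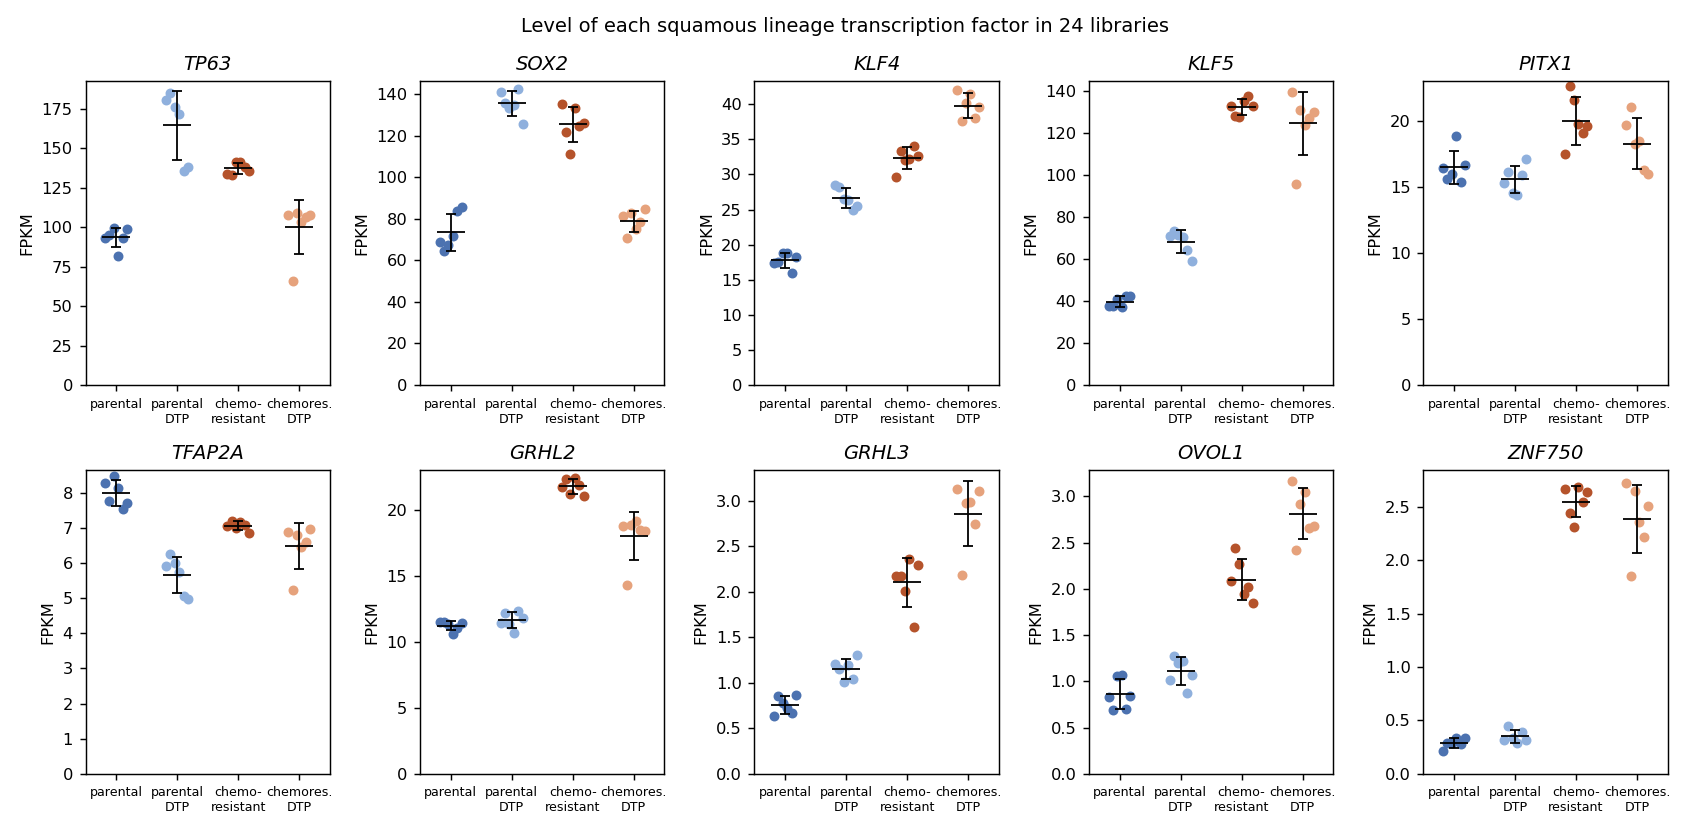
FPKM of each factor (vertical axis, linear from 0) in the 4 groups; points are libraries in replicate order, bars the mean and whiskers the SD of 6 libraries. TP63 and SOX2 are high in parental DTP and chemoresistant cells and low in the other groups, KLF4 steps up through all 4, and ZNF750 means are 0.287 and 0.351 FPKM in the parental and 2.55 and 2.39 in the chemoresistant groups.

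Tests used limma on log2(FPKM + 1) with adjusted p-values (Benjamini-Hochberg over 13729 genes, threshold 0.05). Parental DTP cells against parental cells ask what differs in the persister state of the sensitive line. There 6 factors were higher and 1 was lower, while 65.5% of all genes tested passed (45.8% higher, 19.7% lower). The median change was 0.24 for the factors and 0.14 for all genes. In chemoresistant DTP cells against chemoresistant cells, 3 factors were higher and 3 lower, and 48.0% of all genes passed (20.5% higher, 27.4% lower). The medians there were -0.10 and -0.02. The share of factors called, 7 of 10 and 6 of 10, was close to that of all genes in both comparisons. Libraries of the 2 groups did not overlap for 6 factors in the first comparison and 4 in the second, beside 45.8% and 27.8% of all genes.

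The chemoresistant against the parental line compares the established states. All 10 factors passed, 9 higher and 1 lower, beside 77.5% of all genes (48.2% higher, 29.4% lower). ZNF750 passed the filter only through the chemoresistant groups, with means of 2.55 and 2.39 FPKM beside 0.287 and 0.351 in the parental groups. Its calls as higher between the lines and between their DTP cells are therefore not independent of that filter. The median change was 0.79 for the factors and 0.14 for all genes. This comparison shares the parental libraries with that of parental DTP cells, so the changes are not independent. Chemoresistant DTP against parental DTP cells gave 8 factors higher and 2 lower, beside 61.9% of all genes (29.5% higher, 32.3% lower), with medians of 0.57 and -0.02. The DTP change itself differed between the lines for 6 factors, 5 of them lower and 1 higher in the chemoresistant line, beside 63.8% of all genes (20.5% higher, 43.4% lower). The groups did not overlap for 9 factors between the lines and 8 between their DTP cells, beside 61.8% and 36.2% of all genes.

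Another scaling moved the balance of these calls over all genes. Of all genes, 6283 were higher and 2711 lower in parental DTP cells, and with relative log expression scaling 4477 and 4413, as the median of all genes moved from 0.14 to 0.00. For the chemoresistant line the split went from 6614 and 4031 to 5369 and 5288, and the median from 0.14 to 0.00. For the difference of DTP changes it went from 2812 and 5952 to 4252 and 4565, with the median moving from -0.17 to -0.01. Removing each library's GC trend gave splits of 4729 and 4495, 5629 and 5320, and 4385 and 4874.

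**Figure D3:**
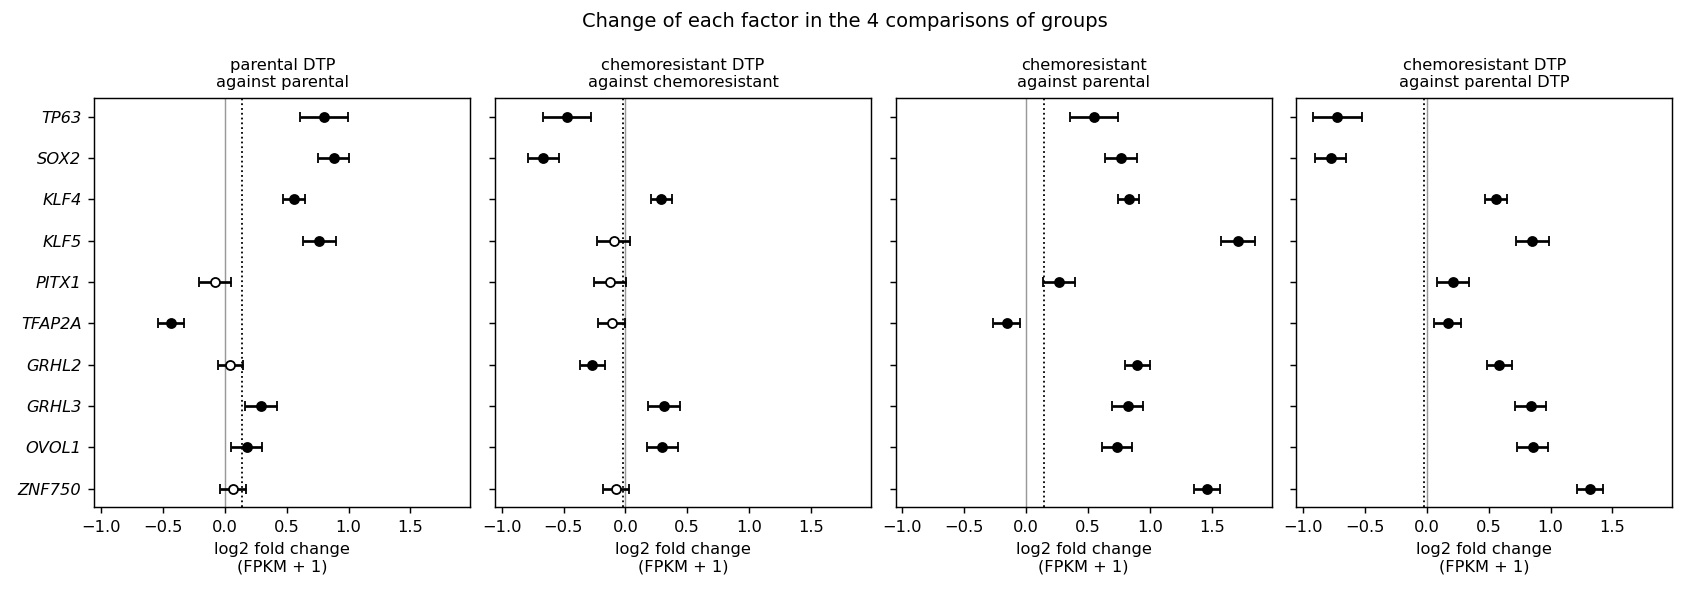
Log2 fold change on log2(FPKM + 1) of each factor (horizontal axis) in the 4 comparisons, with 95% intervals from limma. Filled points passed the adjusted threshold, open points did not, and the dotted line is the median of all genes tested; ZNF750 and KLF5 lie farthest right in the chemoresistant line, while TP63 and SOX2 change sides between the DTP comparisons.

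TP63 and SOX2, the basal lineage factors, rose in parental DTP cells and fell in chemoresistant DTP cells. TP63 (ENSG00000073282, chromosome 3, 189631416 to 189897279, plus strand) ranged from 82.0 to 99.5 FPKM in parental libraries (median 94.0) and from 135.7 to 185.2 in parental DTP libraries (median 174.0). In chemoresistant libraries it was at 133.3 to 141.2 FPKM (median 137.0), and in chemoresistant DTP libraries at 65.9 to 109.3 (median 107.3). The DTP and starting groups did not overlap in either line, but parental and chemoresistant DTP cells overlapped, as did chemoresistant and parental DTP cells. TP63 has 2 main transcript classes from separate promoters, which a gene-level FPKM does not separate.

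SOX2 (ENSG00000181449, chromosome 3, 181711924 to 181714436, plus strand) had the same order of groups. It was at 64.4 to 85.7 FPKM in parental (median 70.1) and 125.8 to 142.5 in parental DTP libraries (median 135.4). Chemoresistant libraries held 111.4 to 135.4 FPKM (median 125.3) and chemoresistant DTP libraries 70.7 to 84.6 (median 79.9). Again the parental and chemoresistant DTP groups overlapped at the low level, and the other 2 overlapped at the high level, with no library between 85.7 and 111.4 FPKM.

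In parental DTP cells the log2 fold change was 0.80 for TP63 (SE 0.10, adjusted p = 1.81e-07) and 0.88 for SOX2 (SE 0.06, adjusted p = 2.50e-11). These are 1.76-fold and 1.84-fold ratios of group means. In chemoresistant DTP cells TP63 fell by 0.47 (SE 0.10, adjusted p = 0.000383) and SOX2 fell by 0.66 (SE 0.06, adjusted p = 9.26e-09). Without chemoresistant DTP library 2 the falls were -0.36 and -0.63, and without parental DTP libraries 5 and 6 the rises were 0.93 and 0.89. With relative log expression scaling the rises were 0.62 and 0.69 and the falls -0.45 and -0.64. The difference between the lines' DTP changes was -1.27 for TP63 (95% interval -1.55 to -0.997) and -1.54 for SOX2 (-1.72 to -1.36). A lower value was found for 3.06% and 1.62% of tested genes. With relative log expression scaling the differences were -1.06 and -1.33. Against the parental line, chemoresistant cells had 0.55 more TP63 and 0.77 more SOX2 on the log2 scale, while among DTP cells the chemoresistant line had 0.72 and 0.78 less. That TP63 difference was -0.61 without chemoresistant DTP library 2 and -0.85 without parental DTP libraries 5 and 6. With relative log expression scaling TP63 and SOX2 were 0.37 and 0.59 higher in chemoresistant than in parental cells.

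**Figure D4:**
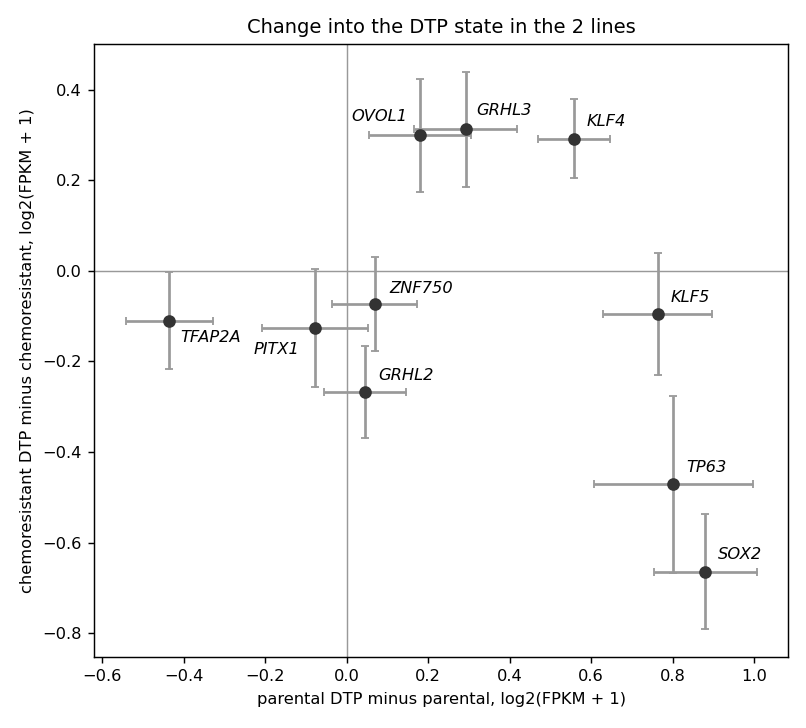
Change into the DTP state in the parental line (horizontal axis) and in the chemoresistant line (vertical axis), as differences of log2(FPKM + 1) with 95% intervals. TP63 and SOX2 lie at lower right, with a rise in one line and a fall in the other, KLF5 is at right near 0 on the vertical axis, and KLF4, GRHL3 and OVOL1 are at upper right.

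The segment of chromosome 3 from SOX2 to TP63 (181711924 to 189897279) holds 56 other tested genes, which were counted in the same way. In parental DTP cells 24 of the 56 were higher and 9 lower, beside 45.8% and 19.7% of all genes. The median was 0.10 beside 0.14 for all genes. In chemoresistant DTP cells 11 were higher and 13 lower, beside 20.5% and 27.4% of all genes, with a median of -0.04 beside -0.02. In the chemoresistant line 34 were higher and 11 lower, beside 48.2% and 29.4% of all genes, and the median was 0.27 beside 0.14. SOX2-OT, a noncoding gene that overlaps SOX2 on its own strand, stayed between 0.034 and 0.179 FPKM as a group mean.

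The sequence before the start of TP63 and SOX2, whose groups stood in the same order, is shown with that of the paralogues KLF4 and KLF5, whose groups did not. Each window holds the 250 bases upstream of a RefSeq start (GRCh38.p14), and capitals mark every match, on either strand, to the motifs named after them.
SOX2, chr3:181711675-181711924, plus strand: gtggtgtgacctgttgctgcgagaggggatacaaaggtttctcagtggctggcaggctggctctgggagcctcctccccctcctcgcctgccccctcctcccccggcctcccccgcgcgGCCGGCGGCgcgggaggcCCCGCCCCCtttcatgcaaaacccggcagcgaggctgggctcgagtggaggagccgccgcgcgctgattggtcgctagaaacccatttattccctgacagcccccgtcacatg
TP63, chr3:189631139-189631388, plus strand: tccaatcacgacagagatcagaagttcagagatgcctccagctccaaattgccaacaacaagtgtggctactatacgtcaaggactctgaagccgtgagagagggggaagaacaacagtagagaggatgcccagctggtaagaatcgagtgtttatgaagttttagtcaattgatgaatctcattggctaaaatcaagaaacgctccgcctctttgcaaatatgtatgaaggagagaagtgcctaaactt
KLF4, chr9:107489770-107490019, minus strand: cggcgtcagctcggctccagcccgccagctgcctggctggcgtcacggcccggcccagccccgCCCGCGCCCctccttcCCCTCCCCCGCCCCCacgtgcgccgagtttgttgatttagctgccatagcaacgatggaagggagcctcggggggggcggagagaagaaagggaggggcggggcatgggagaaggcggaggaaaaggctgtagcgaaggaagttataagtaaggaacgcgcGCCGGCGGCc
KLF5, chr13:73054726-73054975, plus strand: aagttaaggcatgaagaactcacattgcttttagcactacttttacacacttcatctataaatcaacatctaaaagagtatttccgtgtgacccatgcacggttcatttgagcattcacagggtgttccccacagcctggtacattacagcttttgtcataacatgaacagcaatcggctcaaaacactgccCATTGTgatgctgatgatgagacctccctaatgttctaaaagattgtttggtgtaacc
The TP63 window held no match. It ends at 189631388, before the GENCODE start of the gene at 189631416, and a stretch just after it was in 0 of 14 GENCODE transcripts. The start of the shorter TP63 transcripts lies elsewhere, and which class gives the TP63 RNA here was not tested. SOX2 had 1 match to GCCNNNGGC, a simple AP-2 motif, and 1 to GGGNGNGGG, a KLF motif. KLF4 had 1 and 4 matches to the same motifs, and the KLF5 window shown had 1 match to CATTGT, a SOX motif. The table holds a second KLF5 window, chr13:73058755-73059004, not shown here, which had 1 match to GGGNGNGGG and none to CATTGT.

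The RefSeq table gave 10 such windows for 7 of the 10 factors; OVOL1, ZNF750 and GRHL2 have none in it. GGGNGNGGG was in 6 of the 10 windows, beside 31.6% of 35116 windows of all genes, and CCACCC, another KLF motif, in 4 (31.3%). GCCNNNGGC was in 3 (19.8%) and CATTGT in 3 (9.29%). AACCGGTT and the looser AACNNGTT, which contains it (GRHL, 0.117% and 3.0% of all windows), TAATCC (PITX, 5.62%), CCGTTA (OVOL, 2.45%) and TGANTCA (AP-1, 6.57%) were in none. The KLF motifs can overlap each other. A match describes the letters of a window and is not a bound site.

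KLF4 rose in both DTP comparisons and was higher in the chemoresistant line. KLF4 (ENSG00000136826, chromosome 9, 107484852 to 107490482, minus strand) promotes differentiation and growth arrest in epithelia. It was at 15.97 to 18.8 FPKM in parental libraries (median 17.9), 24.9 to 28.6 in parental DTP (median 26.4), 29.7 to 34.1 in chemoresistant (median 32.4) and 37.6 to 42.0 in chemoresistant DTP libraries (median 39.9). No 2 groups overlapped for KLF4. The share of all genes for which that holds was not counted. The log2 fold change was 0.56 in parental DTP (SE 0.04, adjusted p = 1.20e-10), 0.29 in chemoresistant DTP (SE 0.04, adjusted p = 8.77e-06) and 0.83 in the chemoresistant line (SE 0.04, adjusted p = 2.08e-14). The difference of its DTP changes, -0.27 (adjusted p = 0.000756), was lost with relative log expression scaling (-0.06, adjusted p = 0.464) and with the GC trend removed (-0.09, adjusted p = 0.161).

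KLF5 (ENSG00000102554, chromosome 13, 73054976 to 73077542, plus strand), a factor of proliferating basal cells, had the largest rise of the 10 in the chemoresistant line on the log2(FPKM + 1) scale. Parental libraries held 37.3 to 42.6 FPKM (median 39.5) and parental DTP libraries 59.2 to 73.6 (median 70.7). Chemoresistant libraries held 127.5 to 137.6 FPKM (median 133) and chemoresistant DTP libraries 95.8 to 139.6 (median 129). The 2 groups of the parental line were apart from each other and from the chemoresistant ones, which overlapped. KLF5 rose by 0.76 in parental DTP cells (SE 0.07, adjusted p = 8.90e-10) and by 1.71 in the chemoresistant line (SE 0.07, adjusted p = 5.58e-17), a 3.33-fold ratio of means. Its change in chemoresistant DTP cells was -0.10 (95% interval -0.23 to 0.04, adjusted p = 0.261), and -0.02 without library 2. Its DTP changes differed between the lines by -0.86 (adjusted p = 4.19e-08).

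GRHL2, which maintains E-cadherin and claudin expression in epithelia, was higher in the chemoresistant line and fell in its DTP cells. GRHL2 (ENSG00000083307, chromosome 8, 101492432 to 101669726, plus strand) was at 10.6 to 11.48 FPKM in parental (median 11.4) and 10.7 to 12.3 in parental DTP libraries (median 11.6). Chemoresistant libraries had 21.0 to 22.4 FPKM (median 21.8) and chemoresistant DTP libraries 14.3 to 19.1 (median 18.6). The 2 groups of the parental line overlapped and both lay below the chemoresistant groups, which were apart from each other. The line difference was 0.90 (SE 0.05, adjusted p = 7.08e-14), a 1.94-fold ratio, and the chemoresistant DTP change was -0.27 (SE 0.05, adjusted p = 0.000146), or -0.21 without library 2. Its value in parental DTP cells was 0.05 (95% interval -0.06 to 0.15, adjusted p = 0.449), and it was below 0 with relative log expression scaling (-0.13, adjusted p = 0.0139). The difference of DTP changes, -0.31 (adjusted p = 0.000636), was -0.12 with that scaling (adjusted p = 0.101).

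GRHL3, OVOL1 and ZNF750, which act toward the outer layers, were at low levels and all higher in the chemoresistant line. GRHL3 (ENSG00000158055, chromosome 1, 24319322 to 24364482, plus strand), a factor of barrier formation, was at 0.639 to 0.868 FPKM in parental (median 0.7502, 56 to 91 reads) and 1.01 to 1.30 in parental DTP libraries (median 1.17). It was at 1.62 to 2.37 FPKM in chemoresistant (median 2.17) and 2.18 to 3.13 in chemoresistant DTP libraries (median 2.99). The parental groups were apart from each other and from the chemoresistant ones, which overlapped only through the lowest DTP library, number 2. GRHL3 rose by 0.29 in parental DTP cells (SE 0.06, adjusted p = 0.000366), by 0.31 in chemoresistant DTP cells (SE 0.06, adjusted p = 0.000317) and by 0.82 in the chemoresistant line (SE 0.06, adjusted p = 3.12e-11). The last is a 2.79-fold ratio of means, since adding 1 FPKM shrinks the fold of genes this low.

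OVOL1 (ENSG00000172818, chromosome 11, 65787022 to 65797219, plus strand) represses progenitor genes as keratinocytes leave the cycle. Parental libraries held 0.694 to 1.07 FPKM (median 0.837) and parental DTP libraries 0.878 to 1.27 (median 1.13). Chemoresistant libraries held 1.85 to 2.44 FPKM (median 2.06) and chemoresistant DTP libraries 2.43 to 3.17 (median 2.80). Groups of the same line overlapped and the 2 lines did not. The line difference was 0.73 (SE 0.06, adjusted p = 1.90e-10) and the chemoresistant DTP rise 0.30 (SE 0.06, adjusted p = 0.000435). The parental DTP change of 0.18 (adjusted p = 0.0170) was near the median of all genes, and was lost with relative log expression scaling (0.09, adjusted p = 0.262), upper-quartile scaling (0.15, adjusted p = 0.0536) and the GC trend removed (0.11, adjusted p = 0.111).

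ZNF750 (ENSG00000141579, chromosome 17, 82829435 to 82840578, minus strand) drives terminal differentiation and is recurrently mutated in ESCC. Parental libraries had 0.212 to 0.331 FPKM (median 0.288) and parental DTP libraries 0.292 to 0.450 (median 0.326), resting on 15 to 42 reads per library. Chemoresistant libraries had 2.31 to 2.68 FPKM (median 2.60) and chemoresistant DTP libraries 1.85 to 2.72 (median 2.43), on 118 to 220 reads. Every library of the chemoresistant groups lay above every library of the parental groups, and within each line the groups overlapped. The line difference was 1.46 (SE 0.05, adjusted p = 9.04e-18) and that among DTP cells 1.32 (SE 0.05, adjusted p = 1.94e-16), with ratios of means of 8.88 and 6.80. On recovered reads, with voom weights, they were 3.13 and 2.75. Neither DTP change passed, with 0.07 (95% interval -0.04 to 0.17, adjusted p = 0.264) in the parental and -0.07 (-0.18 to 0.03, adjusted p = 0.272) in the chemoresistant line. The latter was -0.03 (adjusted p = 0.660) without chemoresistant DTP library 2.

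Genes on the opposite strand overlap some of these loci, and whether counting used strand is not given in the sources used here. TBCD, a tubulin-folding cofactor opposite ZNF750, had means of 6.91, 5.05, 5.70 and 3.90 FPKM in parental, parental DTP, chemoresistant and chemoresistant DTP cells. ZNF750 itself had 0.287, 0.351, 2.55 and 2.39 FPKM. STPG1, opposite GRHL3, had means of 1.07, 1.67, 1.66 and 1.74 FPKM in the same order, and GRHL3 0.756, 1.15, 2.10 and 2.86. Whether reads of opposite-strand genes enter the levels of the factors was not tested. Other overlapping genes of the 10 factors stayed below 0.5 FPKM as group means.

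PITX1 and TFAP2A differed least between groups. PITX1 (ENSG00000069011, chromosome 5, 135027735 to 135034813, minus strand) was at 15.4 to 18.9 FPKM in parental (median 16.2), 14.4 to 17.1 in parental DTP (median 15.6), 17.51 to 22.6 in chemoresistant (median 19.7) and 15.98 to 21.1 in chemoresistant DTP libraries (median 18.3). All neighbouring groups overlapped. It was 0.26 higher in the chemoresistant line (SE 0.07, adjusted p = 0.000978), a call that was lost with relative log expression scaling (0.09, adjusted p = 0.311) and turned to -0.07 (adjusted p = 0.113) with the GC trend removed. PITX1 has the highest GC content of the 10, 68.9% in its longest transcript, beside 42.5% for TP63. Its DTP changes were -0.08 (95% interval -0.21 to 0.05, adjusted p = 0.317) and -0.13 (-0.26 to 0.00368, adjusted p = 0.122). The first passed with relative log expression scaling (-0.25, adjusted p = 0.00820) and with the GC trend removed (-0.15, adjusted p = 0.00413), and the second passed without chemoresistant DTP library 2 (-0.17, adjusted p = 0.0338) or without chemoresistant library 1 (-0.16, adjusted p = 0.0485).

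TFAP2A (ENSG00000137203, chromosome 6, 10393186 to 10419659, minus strand) was the only factor whose highest level was in the parental line. It was at 7.54 to 8.49 FPKM there (median 7.97), 4.99 to 6.28 in parental DTP (median 5.83), 6.85 to 7.21 in chemoresistant (median 7.08) and 5.23 to 6.97 in chemoresistant DTP libraries (median 6.70). The parental libraries lay above those of the other 3 groups. TFAP2A fell by 0.43 in parental DTP cells (SE 0.05, adjusted p = 2.43e-07), a value below which 6.99% of tested genes lay, and by 0.16 in the chemoresistant line (SE 0.05, adjusted p = 0.0124). The value in chemoresistant DTP cells was -0.11 (95% interval -0.22 to -0.00218, adjusted p = 0.104), and -0.06 (adjusted p = 0.284) without library 2. Among DTP cells it was 0.17 higher in the chemoresistant line (adjusted p = 0.0107), which was 0.10 (adjusted p = 0.119) without parental DTP libraries 5 and 6, and missed the threshold (adjusted p = 0.0564) in a fit of those 2 groups alone.

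For 4 factors the difference between the lines' DTP changes did not pass. It was 0.02 for GRHL3 (95% interval -0.16 to 0.20), 0.12 for OVOL1 (-0.06 to 0.30), -0.14 for ZNF750 (-0.29 to 0.00597) and -0.05 for PITX1 (-0.23 to 0.13). These intervals do not show that the lines changed alike. With the GC trend removed, those of GRHL3 (0.19, adjusted p = 0.0464), OVOL1 (0.29, adjusted p = 0.00275) and PITX1 (0.19, adjusted p = 0.00792) passed. That of OVOL1 also passed with relative log expression scaling (0.22, adjusted p = 0.0447), and that of ZNF750 without chemoresistant DTP library 1 (-0.17, adjusted p = 0.0491).

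The paralogues of the 10 factors include TP73 and the other SOX, KLF, PITX, AP-2, GRHL and OVOL genes, 27 listed and 22 tested. In the chemoresistant line 17 were higher and 1 was lower, beside 48.2% and 29.4% of all genes. The median was 0.72 beside 0.14 for all genes. SOX15, an epithelial relative of SOX2, rose from 2.20 ± 0.146 to 35.4 ± 1.52 FPKM (SD, n = 6 each; log2 fold change 3.51, adjusted p = 9.63e-23). KLF13 rose by 1.88 and KLF7 by 1.54. In parental DTP cells 14 were higher and 3 lower (median 0.38 beside 0.14), beside 45.8% and 19.7% of all genes. KLF10 (1.12), SOX4 (1.03) and GRHL1 (1.02), the third grainyhead-like gene, led. Among them, 5 were higher and 8 lower in chemoresistant DTP cells (median -0.02), beside 20.5% and 27.4% of all genes. TP73 (-0.71) and OVOL2 (0.47) were among the largest changes. The difference of DTP changes was lower in the chemoresistant line for 15 and higher for 1, beside 43.4% and 20.5% of all genes. SOX21 (-1.28) and KLF10 (-1.06) were among the largest.

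Of 40 other epithelial regulators, 32 were tested. Parental DTP cells had 19 higher and 5 lower, beside 45.8% and 19.7% of all genes. FOXE1, a forkhead factor of foregut epithelium, was at 24.6 ± 1.35 beside 5.80 ± 0.510 FPKM (log2 fold change 1.92, adjusted p = 6.04e-17). The AP-1 subunit JUN (1.75) and PRDM1 (1.27) followed. Chemoresistant DTP cells had 8 higher and 12 lower, beside 20.5% and 27.4% of all genes. Among these regulators were FOSL1 (1.14), JUN (0.91) and EHF (-0.62), an epithelial ETS factor. The chemoresistant line had 18 higher and 8 lower, beside 48.2% and 29.4% of all genes. EHF rose there by 2.93 and FOXE1 by 2.57, while FOSL1, another AP-1 subunit, fell from 32.8 ± 3.99 to 4.49 ± 0.326 FPKM (log2 fold change -2.62, adjusted p = 4.49e-21). NOTCH3 was 2.63 and JUNB 1.21 higher in chemoresistant than in parental DTP cells. There 12 of the list were higher and 12 lower, beside 29.5% and 32.3% of all genes.

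Genes of squamous differentiation, the outer-layer program that KLF4, GRHL3 and ZNF750 are known to serve, comprised 40 listed, 39 found in the table and 24 tested. In the chemoresistant line 18 were higher and 4 lower (median 0.76 beside 0.14), beside 48.2% and 29.4% of all genes. SPRR2D, a cornified envelope precursor, rose from 2.83 ± 0.593 to 27.5 ± 2.57 FPKM (log2 fold change 2.91, adjusted p = 7.96e-14). SPRR1A rose by 2.76 and the keratin gene KRT16 by 2.23. Parental DTP cells had 5 higher and 12 lower (median -0.20), beside 45.8% and 19.7% of all genes. KRT6A fell from 1922 ± 123 to 782 ± 83.2 FPKM (adjusted p = 4.98e-14). KRT6B (-1.16) and SPRR2A (-1.13) also fell. Of the same genes, 12 were higher and 2 lower in chemoresistant DTP cells (median 0.30 beside -0.02), beside 20.5% and 27.4% of all genes. SPRR2D (1.75), KRT16 (1.36) and SPRR3 (1.03) led. KRT6A and KRT6B, and the SPRR2 genes, are near-identical copies whose split of reads is uncertain.

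The 26 basal squamous genes, all tested, went both ways. Parental DTP cells had 11 higher and 13 lower (median -0.18 beside 0.14), beside 45.8% and 19.7% of all genes. The desmosomal cadherin DSG3 rose by 1.46 and the receptor EGFR by 1.03, while the basal keratin KRT17 fell by 0.90. For the chemoresistant line's DTP cells the counts were 6 higher and 7 lower (median -0.02), beside 20.5% and 27.4% of all genes. KRT15 (-0.93) and FGFR3 (-0.61) were among the largest changes. The chemoresistant line had 13 higher and 9 lower (median 0.23), beside 48.2% and 29.4% of all genes. There KRT14 fell from 258 ± 20.5 to 44.1 ± 2.53 FPKM (log2 fold change -2.52, adjusted p = 1.24e-19), while DSG3 (1.74) and FGFR3 (1.69) rose.

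Epithelial junction genes, known targets of GRHL2 among them, were tested for 22 of 24. The chemoresistant line had 11 higher and 5 lower (median 0.18 beside 0.14), beside 48.2% and 29.4% of all genes. The claudins CLDN7 (2.94) and CLDN4 (2.37) and the splicing factor ESRP1 (1.45) led. In parental DTP cells 10 were higher and 6 lower, close to the 45.8% and 19.7% of all genes. The changes of ESRP1 (1.47), CLDN7 (1.05) and CLDN1 (0.85) were largest. DTP cells of the chemoresistant line had 6 higher and 3 lower, beside 20.5% and 27.4% of all genes. E-cadherin (CDH1, 0.40) rose there from 31.0 ± 1.40 to 41.7 ± 5.90 FPKM. Of 12 mesenchymal regulators and markers, 9 were tested. In the chemoresistant line 3 were higher and 5 lower, beside 48.2% and 29.4% of all genes. VIM was at 5.92 ± 1.29 beside 0.765 ± 0.193 FPKM, SNAI1 lower by 0.77 and SNAI2 higher by 0.76. The parental DTP comparison had 4 higher and 2 lower, beside 45.8% and 19.7% of all genes. In chemoresistant DTP cells 2 were higher and 0 lower, beside 20.5% and 27.4%.

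Glandular factors, which mark columnar epithelium, were tested for 4 of 18. In the chemoresistant line FOXA2 fell from 5.59 ± 0.414 to 0.398 ± 0.0667 FPKM (log2 fold change -2.24, adjusted p = 2.83e-20), while FOXA1 (1.25) and GATA6 (0.85) rose.

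**Figure D5:**
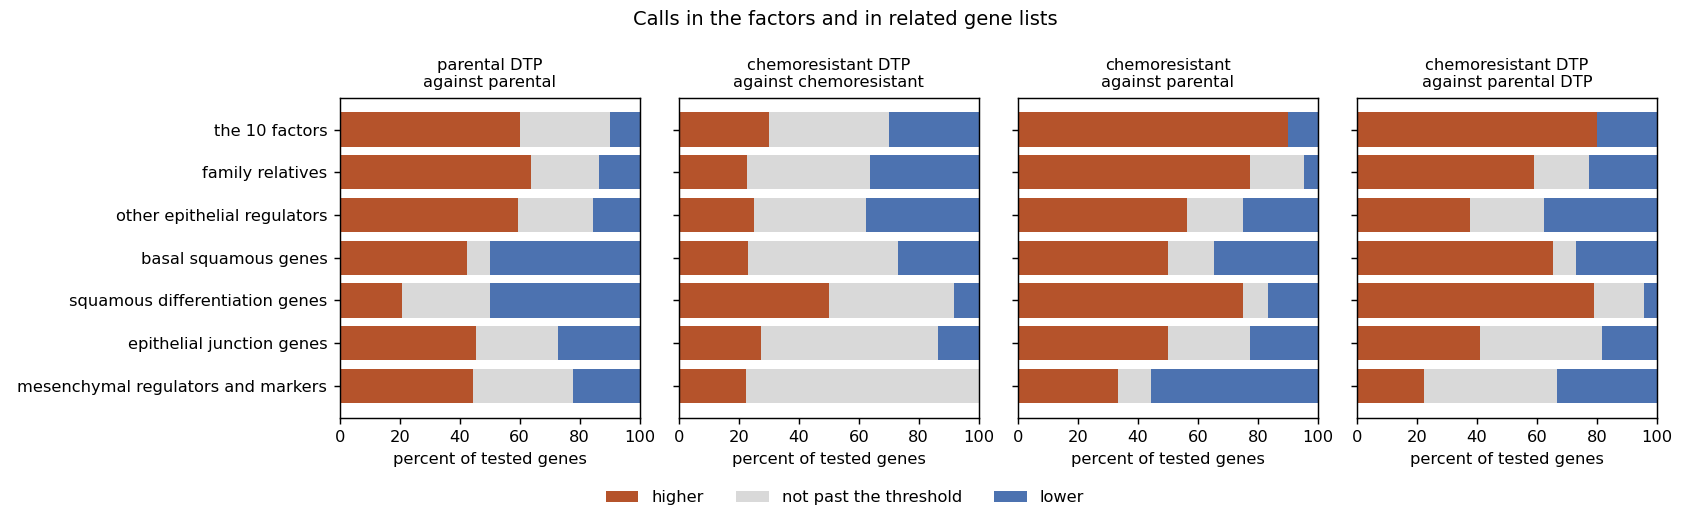
Share of tested genes (percent, horizontal axis) that were higher (brown), lower (blue) or not past the threshold (grey) in the 10 factors and 6 related lists, for the 4 comparisons. In the chemoresistant line 9 of 10 factors, 17 of 22 paralogues and 18 of 24 differentiation genes were higher, beside 48.2% of all genes. In parental DTP cells 12 of 24 differentiation genes were lower, beside 19.7% of all genes.

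Genes whose profile over the 4 group means was most like that of a factor were sought among 6904 protein coding genes for the 3 factors with the widest range. Likeness was the root mean square difference of centred log2(FPKM + 1) means, so it rests on 4 points. The added 1 FPKM shrinks the fold of low genes, and ZNF750, with an 8.88-fold ratio of means, ranges over 1.46 on this scale. A match to ZNF750 or GRHL3 therefore does not mean a like fold. For KLF5 the nearest were ADD3 (0.03), a membrane skeleton protein, with means of 4.15, 7.58, 16.1 and 15.5 FPKM in parental, parental DTP, chemoresistant and chemoresistant DTP cells, and SLC22A18 (0.05). For ZNF750 they were the ribosomal protein gene RPL37 (0.04), with means of 209.5, 210.6, 541 and 529 FPKM, and the cation channel TRPM4 (0.07). GRHL3 was matched most closely by the zinc exporter SLC30A1 (0.03) and by ARPC1A (0.05), an Arp2/3 subunit.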

How the data were processed

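RNA sequencing of 24 libraries in 4 groups of 6 was analysed, with groups and replicate numbers taken from the labels. TRIzol extraction and a standard Illumina protocol are stated, per the labels' protocols. The submitters' processing notes name GRCh38; the aligner, counter, annotation and strandedness: not given in the sources used here. In 1 table, the authors deposited FPKM values with a column per library, per the file headers. Of its 61274 lines, 23 name no gene and were left out. Values were whole multiples of 1 read for all 41101 genes above 0 (within 0.02 reads or a relative 5e-08), which gave the depths.

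limma 3.58.1 in R 4.3.3 was fitted with a mean-variance trend to log2(FPKM + 1) of all 24 libraries with 4 group means, for genes whose mean reached 1 FPKM in a group, a filter that a gene can pass through its high group alone. Tests were two-sided, with Benjamini-Hochberg adjustment within each comparison and a threshold of 0.05. The fit was tested on simulated data. The 10 factors, the gene lists and the alternatives were chosen with earlier results of these data known. Of each other list, up to 3 genes with the largest change past the threshold are named where the higher group's mean reached 1 FPKM. Of these, 2 genes are not reported here. No pairing of the libraries by replicate number was seen. Coordinates are from GENCODE release 29, upstream windows from RefSeq (GRCh38.p14).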

Additional observations from a re-analysis of the deposited data

Results flagged for a closer look

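For each factor in each group of 6, the gap between the lowest or highest library and its neighbour was set against the whole range, 40 groups in all. Dixon's 95% limit flags about 1 in 20 such groups by chance. Chemoresistant DTP library 2 was far below its group for TP63 (65.9 FPKM), KLF5 (95.8 FPKM), TFAP2A (5.23 FPKM) and GRHL2 (14.3 FPKM), and parental library 4 was far above its group for PITX1 (18.9 FPKM). The 4 flags of library 2 come from 1 library and are not independent. That library also had the lowest correlation of deviation with gene length (rho -0.408), and the part of this in its low values was not tested.

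The change into the DTP state differed between the lines, by a test of the difference itself in limma, for 6 of the 10 factors. That is close to the share of all genes, 63.8% (20.5% higher, 43.4% lower). On log2(FPKM + 1), chemoresistant minus parental line, the difference was -1.27 for TP63, -1.54 for SOX2, -0.27 for KLF4, -0.86 for KLF5, 0.32 for TFAP2A and -0.31 for GRHL2. With relative log expression scaling those of KLF4 (-0.06) and GRHL2 (-0.12) no longer passed.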

How the results depend on the processing

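Of 1725 alternative values for the 50 results on single factors, 1694 kept their direction and side of the threshold, 9 lost the call, 9 gained one and 13 changed sign; 37 results kept both throughout. The alternatives with voom on recovered reads, with each library's GC trend removed, and without parental DTP libraries 5 and 6 and chemoresistant DTP library 2 were added after seeing the data.

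The sign changes were as follows, and the cause was not tested. GRHL2 in parental DTP cells was at -0.13 with relative log expression scaling, -0.0159 with upper-quartile scaling and -0.0798 with the GC trend removed. With the GC trend removed, ZNF750 in parental DTP cells was at -0.0380, PITX1 in chemoresistant DTP cells at 0.0421 and in the chemoresistant line at -0.0735, and the differences of DTP changes were 0.19 for PITX1 and 0.0342 for ZNF750. The PITX1 difference was 0.15 with relative log expression scaling. The GRHL3 difference, 0.02, was -0.13 with a pseudocount of 0.1, -0.16 with voom, -0.0288 without chemoresistant replicate 5 and -0.00139 without chemoresistant DTP replicate 1, in a range up to 0.0739 over single libraries left out.

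With a filter at 5 FPKM, which tests fewer genes, 5012, 3932, 6020, 4895 and 4877 genes passed in parental DTP, chemoresistant DTP, the chemoresistant line, between the DTP groups and for the difference. With no filter 16484 passed in the chemoresistant line. Leaving out 1 library gave 8578 to 9543, 6177 to 7232, 10380 to 11020, 8051 to 8723 and 8544 to 9215 genes in the same order.

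With the replicate number as a block, 8965, 6629, 10674, 8552 and 8819 genes passed, and all 50 results on single factors kept their call. Same-numbered libraries correlated between -0.385 and 0.403 in their deviations, and of 6 libraries, 0 to 2 correlated best with their own number. No pairing by number was seen. These deviations also follow gene GC content, so the correlations cannot exclude a pairing. The edgeR and DESeq2 alternatives planned on recovered reads were not run, as the deposited unit is FPKM. Depth limits ZNF750 most, at 15 to 42 reads per library in the parental groups.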
